A study of Mus musculus with 9 samples.

Results

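Semaphorins, plexins and neuropilins were examined as a family of guidance ligands and receptors in RNA of dorsal root ganglia (DRG). The genes were matched by symbol, as members of semaphorin classes 3 to 7, of the plexin A, B, C and D subfamilies, and the 2 neuropilins. The family was chosen with earlier results of these data known. This gave 31 of the 55247 genes in the deposited table, of which 20 are semaphorins, 9 are plexins and 2 are neuropilins. All 31 had at least 100 counts in every library and were tested, together with 13200 genes in all.

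DRGs were taken from mouse embryos at E18.5 and sequenced in 9 libraries, 3 for each of 3 genotypes: WT, Isl1Cre/+ and Isl1Cre/+::Meis2LoxP/LoxP, called mutant hereafter. In the mutant both copies of Meis2 carry LoxP sites around exon 8, and Cre recombinase is expressed from 1 copy of the Isl1 gene. The Isl1Cre/+ embryos carry the same modified Isl1 copy with unmodified Meis2, so both groups share the loss of 1 intact Isl1 copy, and no group with floxed Meis2 and no Cre was analysed here. Cre was active only in cells that had expressed Isl1, whereas the libraries were made from whole ganglia. Because RNA was measured in bulk, fewer cells of a type and less RNA per cell cannot be told apart. Nothing in the labels says whether libraries came from separate embryos or litters, so the p-values measure only the spread between these libraries.

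Semaphorins guide growing axons, mostly by repelling them, and also act on blood vessels, glia and immune cells. Class 3 semaphorins are secreted and most bind a neuropilin, which holds them to a plexin A or plexin D1 that carries the signal into the cell. Semaphorins of classes 4, 5 and 6 span the membrane, and the class 7 member is anchored to it by a lipid. Class 4 ligands mostly act through plexin B receptors, class 6 ligands through plexin A receptors, and Sema7a through plexin C1 and integrins. In the peripheral nervous system, Sema3a is the textbook repellent of cutaneous sensory axons that carry Nrp1. The study asked what sensory neurons need the transcription factor Meis2 for, including the innervation of touch receptors in the skin, and this family holds many of the known ligands and receptors of axon growth.

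The libraries held 23854607 to 29103444 counts, of which the 31 genes took 0.261% to 0.296%. Meis2 had 2919, 2902 and 2746 counts in WT, 2806, 2857 and 2537 in the Isl1Cre/+ libraries, and 1084, 1073 and 1004 in mutant libraries, which corresponds to log2 fold changes of -1.33 against WT (edgeR, Benjamini-Hochberg adjusted p = 0.00779) and -1.23 against Isl1Cre/+ (edgeR adjusted p = 0.00215). Isl1 averaged 262 ± 30.4 counts per 1000000 scaled counts (CPM) in WT, 186 ± 19.1 in Isl1Cre/+ and 188 ± 24.7 in mutant libraries (SD, n = 3 each). All 15 markers of sensory neurons and all 12 of Schwann and satellite glial cells were detected, with summed levels of 14907 to 26167 and 2021 to 2502 CPM. The summed level was 3332 to 7147 for fibroblasts and meninges, 338 to 581 for endothelial cells, 221 to 324 for pericytes and smooth muscle, 67.2 to 164 for macrophages, and 247 to 377 for dividing cells. It was 69.3 to 2389 CPM for skeletal muscle, 344 to 3978 for erythroid cells and 89.5 to 158 for cartilage. For sympathetic neurons it was 13.6 to 33.5, and for spinal cord cells 39.2 to 67. Of the spinal cord markers, the motor neuron marker Mnx1 was at 0 in every library except WT library 2. Chat, at 0.034 to 0.114 CPM, and Slc5a7, at 11.2 to 18.1, were above 0 in every library. WT library 1 and mutant library 2 stood apart, with median rank correlations to the other libraries of 0.981 and 0.979, against 0.991 to 0.995 for the rest.

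Levels were compared between genes as counts per kilobase of exon per 1000000 scaled counts, and are called levels per length. The 31 genes spanned an 87.7-fold range of mean level per length, and 17 of them lay above the median of all tested genes, which was 6.54. A receptor, Plxnd1, and a ligand, Sema4f, led the family. The highest library of a gene exceeded its lowest by under 1.5-fold for 25 of 31 genes, with a median ratio of 1.34 over all 31. The others were Sema3g with 2.14, Sema3d with 1.99, Sema3a with 1.96, Sema5b with 1.81, Plxnb3 with 1.58 and Sema6b with 1.55.

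**Figure D1:**
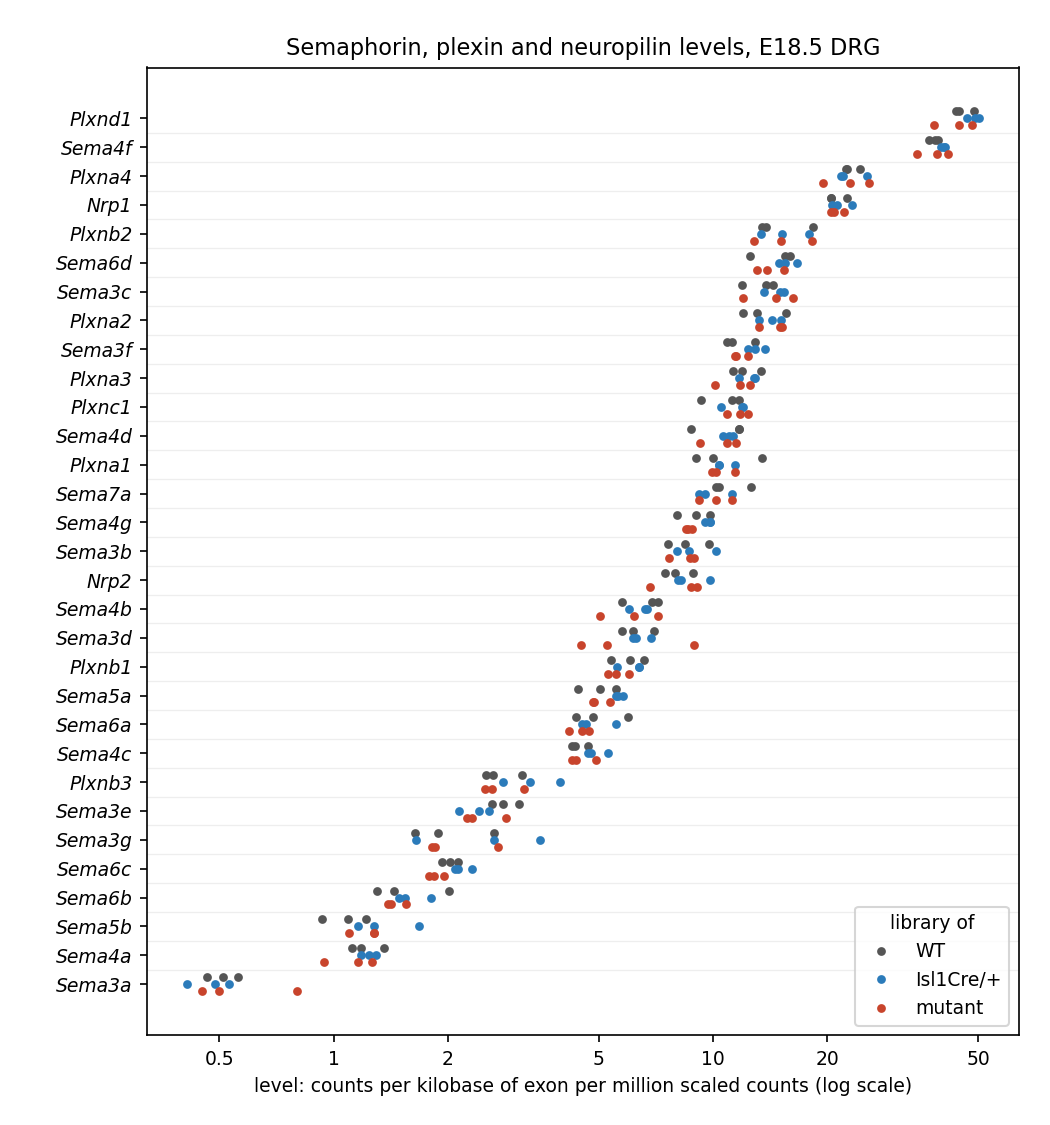
Level per length of each of the 31 genes in each of 9 libraries (counts per kilobase of exon per 1000000 scaled counts, log axis), with genes ordered by their mean and 3 points per genotype. Plxnd1 and Sema4f sit at the top with means of 46 and 39, Sema3a sits at the bottom with 0.524, and the points of the 3 genotypes largely overlap in each line.

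Among the receptors, Plxnd1, which binds Sema3e directly, had a level per length of 48.6, 44.6 and 43.6 in WT, 50.2, 49 and 46.8 in the Isl1Cre/+ libraries, and 44.4, 38.3 and 48.2 in mutant libraries. It made up 32.5% of the summed plexin level. Plxna4, a plexin A that works with neuropilins in sensory axons, had 24.4, 22.4 and 22.5 in WT, 21.7, 25.4 and 22 in the Isl1Cre/+ libraries, and 25.8, 19.5 and 22.9 in mutant libraries. For both plexins mutant library 2 was the lowest of the 9, and the libraries of the 3 genotypes overlapped. The 4 plexin A genes together made up 42.3% of the plexin level, ranging from 22.9 for Plxna4 through 14.1 for Plxna2 and 12 for Plxna3 to 10.7 for Plxna1. Plexin B genes made up 17.2%, with mean levels per length of 15.4 for Plxnb2, 5.92 for Plxnb1 and 2.96 for Plxnb3, and Plxnc1 had 11.3.

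Nrp1, the co-receptor of Sema3a and of VEGF-A, had a level per length of 22.6, 20.5 and 20.5 in WT, 21.2, 23.2 and 20.6 in the Isl1Cre/+ libraries, and 22.1, 20.5 and 20.8 in mutant libraries. This was the narrowest spread of the family, with a highest to lowest ratio of 1.14. Nrp2, the preferred co-receptor of Sema3f, had 7.48, 7.94 and 8.85 in WT, 9.83, 8.11 and 8.25 in the Isl1Cre/+ libraries, and 6.83, 9.08 and 8.75 in mutant libraries. The ratio of Nrp1 to Nrp2 was 2.64 ± 0.355 in WT, 2.51 ± 0.354 in Isl1Cre/+ and 2.62 ± 0.534 in mutant libraries (SD, n = 3 each), so the genotypes differed by less than the spread between their libraries.

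Among the ligands, the class 4 semaphorins made up 45% of the summed semaphorin level and class 3 made up 29.6%, against 14.7% for class 6, 6.61% for the class 7 member Sema7a and 4.08% for class 5. Sema4f, a transmembrane ligand, contributed 24.7% by itself. Its level per length was 39.1, 38.4 and 37 in WT, 40.9, 40.6 and 39.9 in the Isl1Cre/+ libraries, and 39, 34.5 and 41.6 in mutant libraries. Sema6d, a class 6 ligand of plexin A1, had 12.5, 15.5 and 16 in WT, 16.6, 14.9 and 15.5 in the Isl1Cre/+ libraries, and 13.9, 13.1 and 15.4 in mutant libraries, with WT library 1 the lowest of the 9. Sema3c, a secreted ligand that uses both neuropilins, had 11.9, 13.8 and 14.4 in WT, 15, 13.6 and 15.4 in the Isl1Cre/+ libraries, and 12, 16.2 and 14.7 in mutant libraries, and here too WT library 1 was the lowest.

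The secreted class 3 ligands differed widely from each other in mean level per length, from 14.1 for Sema3c, 12.1 for Sema3f, 8.66 for Sema3b and 6.31 for Sema3d down to 2.56 for Sema3e, 2.27 for Sema3g and 0.524 for Sema3a. Sema3a had the lowest level per length of all 31 genes. Its counts, 161 to 293 per library, were not the lowest, since Sema4a had 134 to 207 and Sema6b 137 to 213. In class 4, Sema4f was followed by Sema4d with 10.7, Sema4g with 9.1, Sema4b with 6.39, Sema4c with 4.61 and Sema4a with 1.19. The class 6 ligands after Sema6d were lower, at 4.81 for Sema6a, 2.02 for Sema6c and 1.55 for Sema6b, and the class 5 ligands stood at 5.22 for Sema5a and 1.22 for Sema5b. Sema7a had a mean level per length of 10.4.

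Most neighbours in the order of levels could not be separated. Of 30 neighbouring pairs, 4 had ranges over the 9 libraries that did not overlap: Sema4f above Plxna4, Nrp1 above Plxnb2, Sema4c above Plxnb3, and Sema4a above Sema3a. The order also depended on the length used, since Nrp1 became the highest of the 31 when counts were divided by the longest annotated transcript, with 57.3 against 50.5 for Sema4f and 48.6 for Plxnd1. A change of more than 3 places was seen for 4 genes with that length. The exons of Plxna1 shared 10.7% of their bases with Gm26811 and those of Sema4c 7.27% with D430040D24Rik, both on the opposite strand, and Nrp1, Sema4a, Plxna4, Plxnb1 and Plxnc1 shared 0.78% to 2.68% with another gene. Among these, the overlaps of Nrp1, Sema4a and Plxnc1 were on the same strand, so reads in the shared bases cannot be told apart by strand. For the overlaps on the opposite strand they cannot be told apart either, since the strand setting of the counting is not given in the sources used here.

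Members close to each other on a chromosome differed in level. On chromosome 5 (GRCm38), Sema3d, Sema3a, Sema3e and Sema3c follow each other on the forward strand between positions 12383385 and 17730268. No coding gene lies in the 536465 bases between Sema3d and Sema3a, 1 lies in the 422710 bases between Sema3a and Sema3e and 16 lie in the 3317591 bases between Sema3e and Sema3c, and mean levels per length along this stretch ran 6.31, 0.524, 2.56 and 14.1. Sema3b and Sema3f lie 72270 bases apart on the reverse strand of chromosome 9, with 3 coding genes between them, and had 8.66 and 12.1. Plxnb3 and Plxna3 lie 556551 bases apart on chromosome X, with 23 coding genes between them, and had 2.96 and 12.

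The comparison of mutant with Isl1Cre/+ asks what the loss of Meis2 adds to the modified Isl1 copy that both carry. Of the 31 genes, 26 had a lower estimate in the mutant, with a median log2 fold change of -0.09 against 0.000 over all genes tested, of which 49.8% were lower. The differences were small, between -0.29 and 0.30 on the log2 scale. By class, 17 of 20 semaphorins, 7 of 9 plexins and both neuropilins had lower estimates. Markers of other cell types moved in the same comparison: 8 of 8 tested skeletal muscle, 7 of 7 tested erythroid, 3 of 8 pericyte and smooth muscle, 2 of 6 tested cartilage and 1 of 3 tested sympathetic markers met the criterion as higher in the mutant, and 1 of 12 endothelial markers as lower. Their summed levels ranged in Isl1Cre/+ and in mutant libraries from 69.3 to 190 and 159 to 2389 CPM for skeletal muscle, and from 344 to 984 and 1213 to 3978 for erythroid cells. No fibroblast, glial, macrophage or sensory neuron marker met it, and the part of the markers that moved in the shift of the family was not tested. None of the 31 met the criterion of at least 1.2-fold and an unadjusted p under 0.05, which 1.67% of all tested genes met, and none did with DESeq2 or limma voom. An adjusted p under 0.05 was reached by none of them and by 0.00758% of tested genes, and the edgeR adjusted p was 1 for each of the 31. An unadjusted p under 0.05 was found for 3 semaphorins (9.68% of the family) and for 2.73% of tested genes, and the libraries of the 2 genotypes did not overlap for the same 3 genes and for 7.65% of tested genes. These were Sema4g, Sema5a and Sema6c, all lower in the mutant.

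**Figure D2:**
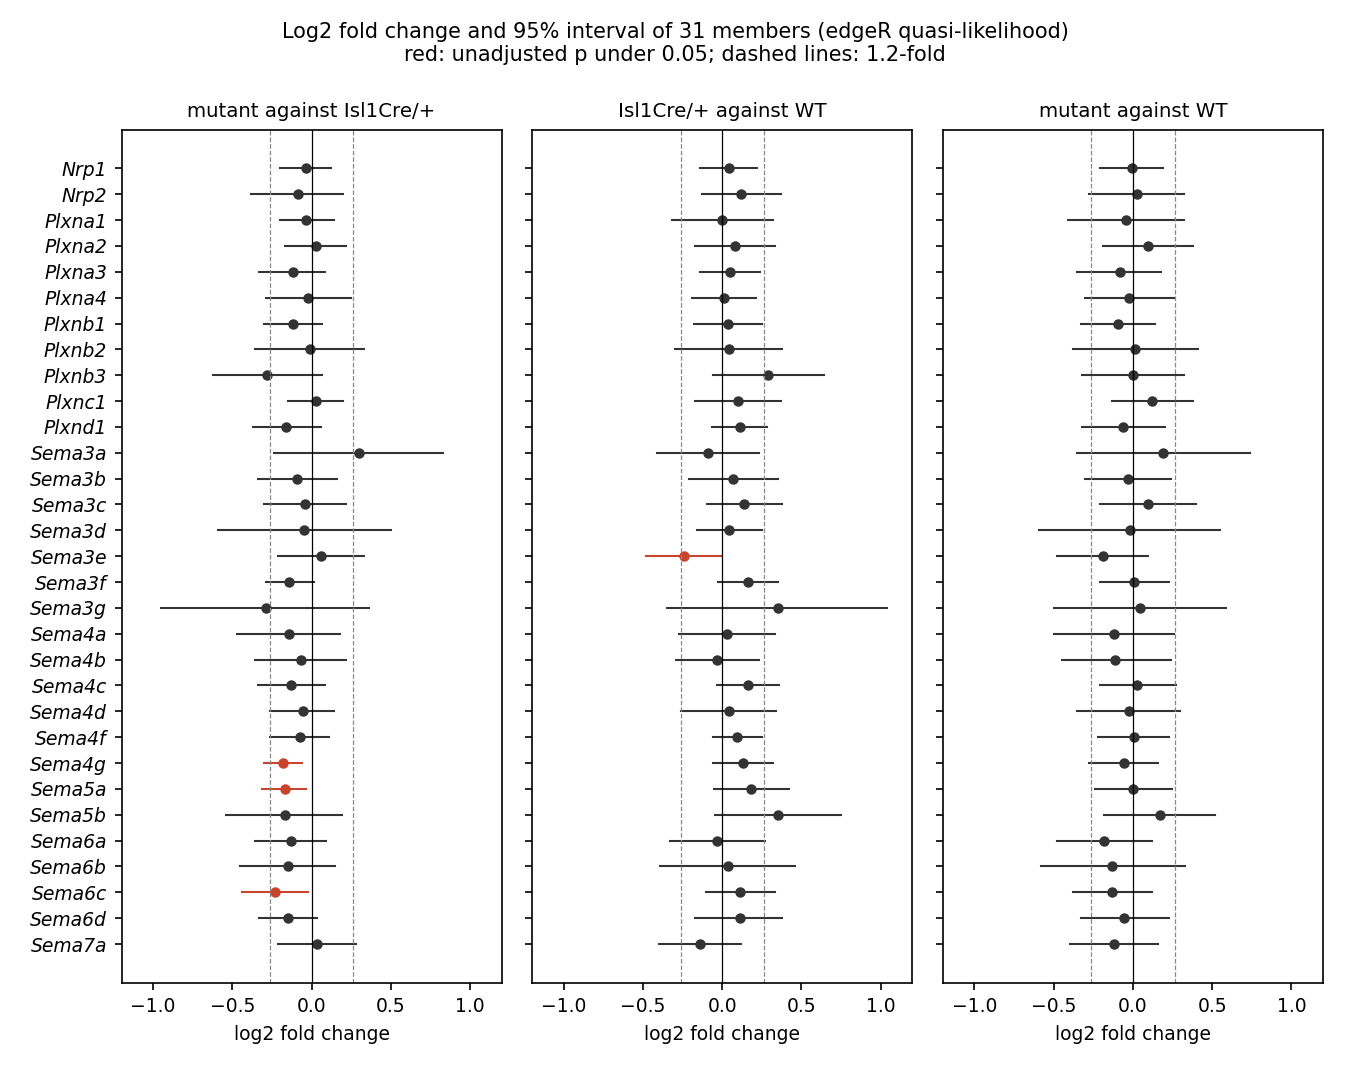
Log2 fold change (points) with its 95% interval (lines) for each of the 31 genes in 3 comparisons of genotypes. In red are the genes with an unadjusted p under 0.05, which are Sema4g, Sema5a and Sema6c in mutant against Isl1Cre/+ and Sema3e in Isl1Cre/+ against WT, and dashed lines mark 1.2-fold.

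Sema4g (ENSMUSG00000025207.16, chr19:44989101-45003397 of GRCm38, forward strand), a transmembrane class 4 ligand, had 85, 78.2 and 69.6 CPM in WT, 85.2, 85.2 and 82.5 in the Isl1Cre/+ libraries, and 76, 74.2 and 73.5 in mutant libraries. The mutant libraries lay below all Isl1Cre/+ libraries but inside the WT range. The log2 fold change against Isl1Cre/+ was -0.18 ± 0.0508 (SE), a level 1.13-fold lower, with an edgeR unadjusted p = 0.00941 and a Benjamini-Hochberg adjusted p = 1. In all 14 alternative fits its unadjusted p stayed under 0.05, from 0.00587 to 0.047 in edgeR, DESeq2 and limma.

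Sema5a (ENSMUSG00000022231.10, chr15:32244810-32696341, forward strand), a class 5 ligand with thrombospondin repeats, had 82.5, 94.4 and 103 CPM in WT, 105, 104 and 108 in the Isl1Cre/+ libraries, and 99.7, 90.5 and 90.6 in mutant libraries. Mutant and Isl1Cre/+ libraries did not overlap, nor did WT and Isl1Cre/+ libraries, whereas mutant and WT libraries overlapped. Isl1Cre/+ against WT met the criterion without WT library 3 (log2 fold change 0.27, edgeR unadjusted p = 0.0346, adjusted p = 0.952), against 0.18 ± 0.101 (SE) with all libraries. Against Isl1Cre/+ the mutant was lower by 1.13-fold (log2 fold change -0.17 ± 0.0593 SE, edgeR unadjusted p = 0.0217, adjusted p = 1), and against WT its log2 fold change was 0.0024 ± 0.104 (SE). The unadjusted p against Isl1Cre/+ missed 0.05 in 5 of 14 alternative fits, without Isl1Cre/+ library 3, without mutant library 2 or 3, with all genotypes fitted together and with replicate numbers as blocks, where edgeR gave an unadjusted p = 0.0798 at the highest.

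Sema6c (ENSMUSG00000038777.19, chr3:95160457-95174024, forward strand), a transmembrane class 6 ligand, had 336, 324 and 347 counts in WT, 405, 353 and 352 in the Isl1Cre/+ libraries, and 281, 287 and 283 in mutant libraries. The mutant libraries had the 3 lowest raw counts, and after scaling, at 10.6, 10.9 and 11.6 CPM, they lay below every Isl1Cre/+ library and overlapped WT, whose lowest was 11.5. The log2 fold change against Isl1Cre/+ was -0.23 ± 0.088 (SE, edgeR unadjusted p = 0.0326, adjusted p = 1), or 1.17-fold lower. The unadjusted p missed 0.05 in 6 of 14 alternative fits, among them DESeq2 with an unadjusted p = 0.0913 and the fit without Isl1Cre/+ library 1, where edgeR gave an unadjusted p = 0.117. Leaving out mutant library 3 gave -0.27 (edgeR unadjusted p = 0.033, adjusted p = 0.919), which met the criterion.

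**Figure D3:**
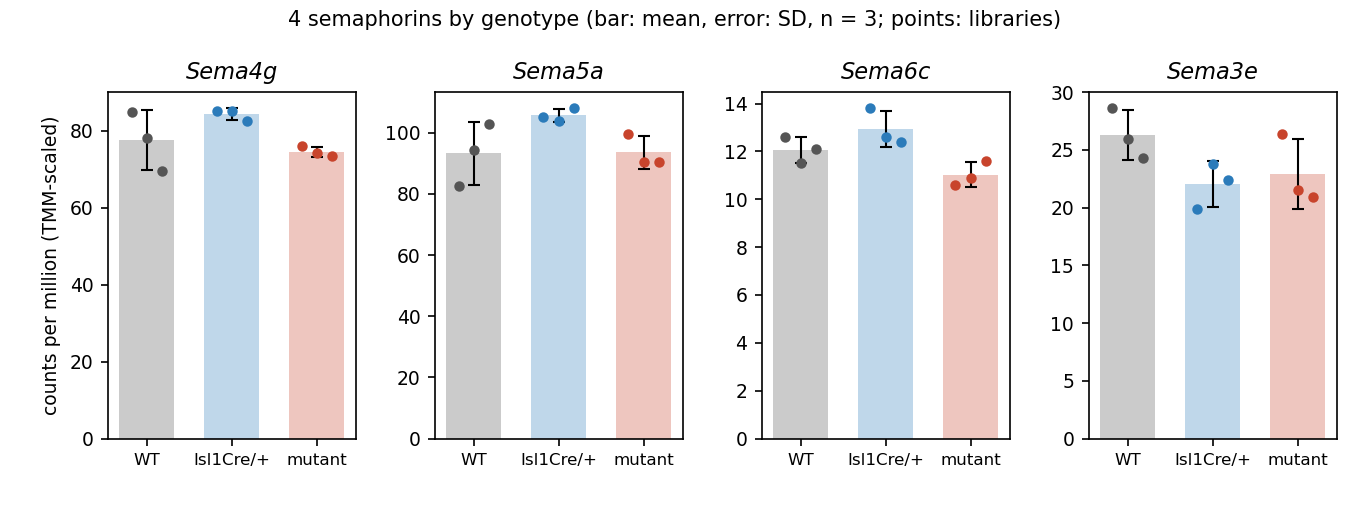
CPM in each library (points), with mean (bar) and SD (error bar, n = 3), for the 4 semaphorins with an unadjusted p under 0.05 in a comparison of 2 genotypes. The mutant points lie below the Isl1Cre/+ points for Sema4g, Sema5a and Sema6c, and the Isl1Cre/+ points lie below the WT points for Sema3e.

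Sequence upstream of these genes was read because Meis2 is a DNA-binding homeodomain protein, of a family known to bind the letters TGACAG. In windows from 250 bases before to 50 bases after each transcription start in RefSeq (GRCm38.p6), TGACAG on either strand stood in 8 of 37 windows of the family (21.6%) and in 19.2% of 32851 windows of all genes. Among genes, it stood upstream of 6 of 26 family members with a window, namely Plxna2, Sema3g, Sema4a, Sema4d, Sema6c and Sema7a, and of 21.6% of all genes with a window. The family therefore lay close to the share of all genes. Of the genes with an unadjusted p under 0.05, Sema6c held it, with 2 matches in the window of its downstream start, and the stretches of Sema6c, Sema5a and Sema3e that contain no annotated exon are shown with any match in capitals. Sema4g is not shown, since the longest such stretch before its start had 7 bases, with no match. They lie on the forward strand at chr3:95160170-95160419 and chr3:95164089-95164305 (Sema6c, alternative starts), chr15:32244663-32244809 (Sema5a) and chr5:14025026-14025275 (Sema3e).
Sema6c, upstream start: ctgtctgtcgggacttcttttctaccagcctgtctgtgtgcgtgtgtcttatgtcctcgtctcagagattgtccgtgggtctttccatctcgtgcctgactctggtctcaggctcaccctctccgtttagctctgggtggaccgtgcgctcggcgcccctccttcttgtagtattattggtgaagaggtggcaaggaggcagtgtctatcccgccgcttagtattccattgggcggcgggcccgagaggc
Sema6c, downstream start: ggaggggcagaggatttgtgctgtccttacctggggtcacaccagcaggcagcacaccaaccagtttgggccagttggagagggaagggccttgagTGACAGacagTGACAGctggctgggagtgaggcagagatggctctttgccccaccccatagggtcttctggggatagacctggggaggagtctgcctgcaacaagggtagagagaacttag
Sema5a: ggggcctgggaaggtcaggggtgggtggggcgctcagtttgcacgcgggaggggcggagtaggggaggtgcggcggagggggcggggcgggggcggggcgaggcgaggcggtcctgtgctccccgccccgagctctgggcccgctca
Sema3e: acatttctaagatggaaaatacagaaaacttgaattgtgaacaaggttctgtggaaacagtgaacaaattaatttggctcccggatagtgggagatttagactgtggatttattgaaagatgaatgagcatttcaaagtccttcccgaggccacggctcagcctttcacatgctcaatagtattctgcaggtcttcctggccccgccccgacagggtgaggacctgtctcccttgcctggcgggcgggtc
The stretches had a GC content of 57.6% and 58.5% for Sema6c, 78.9% for Sema5a and 48% for Sema3e. A match to 6 letters is a description of the sequence, and binding of Meis2 was not measured in these samples.

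The comparison of mutant with WT covers both changes of genotype at once. In it 13 of the 31 genes had a higher and 18 a lower estimate, with a median log2 fold change of -0.02 against -0.009 for all genes tested. None met the criterion, as against 0.318% of tested genes, and none did with DESeq2 or limma voom. No member had an edgeR unadjusted p under 0.05, which 0.371% of tested genes had, or an adjusted p under 0.05, which 0.00758% had, and the libraries of the genotypes overlapped for every member, whereas for 2.76% of tested genes they did not. The lowest unadjusted p belonged to Sema3e, with a log2 fold change of -0.19 ± 0.123 (SE, edgeR unadjusted p = 0.155, adjusted p = 1). Without mutant library 1 it was -0.31 ± 0.118 (SE, edgeR unadjusted p = 0.0379, adjusted p = 1) and met the criterion. The 95% interval of the difference lay within 1.5-fold in either direction for 28 of 31 genes and within 2-fold for all 31. Changes of 2-fold in RNA of whole ganglia were therefore outside the interval for every gene of the family at this spread. The intervals of Sema3a, Sema3d and Sema3g reached beyond 1.5-fold. Changes confined to some of the cells were not measured.

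The receptors and leading ligands were close between mutant and WT. The log2 fold change was -0.0078 ± 0.0864 (SE) for Nrp1, 0.023 ± 0.128 for Nrp2, -0.063 ± 0.111 for Plxnd1, -0.023 ± 0.12 for Plxna4, 0.0081 ± 0.0967 for Sema4f, -0.053 ± 0.119 for Sema6d and 0.094 ± 0.129 for Sema3c. The 95% interval for Nrp1 ran from -0.21 to 0.19. Against Isl1Cre/+, the same genes had log2 fold changes of -0.038 ± 0.0688, -0.088 ± 0.123, -0.16 ± 0.0924, -0.02 ± 0.114, -0.076 ± 0.0777, -0.15 ± 0.0775 and -0.039 ± 0.11, in the same order. All of these missed an unadjusted p of 0.05 in edgeR.

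The comparison of Isl1Cre/+ with WT asks what the modified Isl1 copy does without a change in Meis2. Here 26 of the 31 genes had a higher estimate in Isl1Cre/+, including all 9 plexins and both neuropilins, with a median log2 fold change of 0.07 against -0.002 for all tested genes, of which 50.7% were lower. In the same comparison 8 of 8 tested skeletal muscle, 7 of 7 tested erythroid, 2 of 6 tested cartilage, 2 of 3 tested sympathetic markers and 1 of 15 sensory neuron markers met the criterion as lower in Isl1Cre/+, and 3 of 12 endothelial and 1 of 8 pericyte and smooth muscle markers as higher. The sensory neuron list holds Isl1, the modified gene itself, which had a log2 fold change of -0.48 in this comparison. In WT the summed levels ranged from 137 to 1014 CPM for skeletal muscle and from 899 to 2141 for erythroid cells. The part of the markers that moved in the shift of the family was not tested. This comparison and that of mutant with Isl1Cre/+ use the same Isl1Cre/+ libraries, so their directions are not separate evidence. None of the 31 met the criterion, which 1.4% of tested genes met, and none did with DESeq2 or limma voom. An adjusted p under 0.05 was reached by none, and by 0% of tested genes. An unadjusted p under 0.05 was found for Sema3e alone and for 1.79% of tested genes. Libraries did not overlap for 3 of 31 genes (9.68%), namely Sema3e, Sema4f and Sema5a, and for 5.66% of tested genes.

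Sema3e (ENSMUSG00000063531.7, chr5:14025276-14256689, forward strand), the secreted ligand that signals through plexin D1 without a neuropilin, had 28.6, 25.9 and 24.3 CPM in WT, 19.9, 23.8 and 22.4 in the Isl1Cre/+ libraries, and 26.4, 21.5 and 20.9 in mutant libraries. All Isl1Cre/+ libraries lay below all WT libraries, while mutant library 1 lay among WT and the other mutant libraries among Isl1Cre/+. The log2 fold change of Isl1Cre/+ against WT was -0.24 ± 0.0997 (SE, edgeR unadjusted p = 0.0444, adjusted p = 1), or 1.18-fold lower. The unadjusted p missed 0.05 in 8 of 14 alternative fits, and the criterion was met without WT library 3 (-0.29, edgeR unadjusted p = 0.04, adjusted p = 0.952) and without Isl1Cre/+ library 2 (-0.30, edgeR unadjusted p = 0.0376, adjusted p = 0.999). Its receptor Plxnd1 had 355, 326 and 318 CPM in WT against 367, 357 and 342 in Isl1Cre/+, with a log2 fold change of 0.11 ± 0.0724 (SE) and overlapping libraries.

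When the mutant was set against all 6 control libraries, 26 of 31 genes had a lower estimate, with a median of -0.06 against -0.006 for all tested genes, of which 53.2% were lower. The mutant, Isl1Cre/+ and WT libraries are those of the comparisons above, so this count is not separate evidence. The controls also mix WT with Isl1Cre/+, which carries the modified Isl1 copy. None met the criterion (0.674% of tested genes did), and none did with DESeq2 or limma voom. Sema6c had an unadjusted p under 0.05, as did 1.2% of tested genes, with a log2 fold change of -0.18 ± 0.0804 (SE, edgeR unadjusted p = 0.0472, adjusted p = 1). Mutant and control libraries overlapped for all 31 genes, while they did not for 0.848% of tested genes.

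Sums over classes differed by small amounts. All semaphorins together had a summed level per length of 156 ± 1.15 in WT, 164 ± 4.62 in Isl1Cre/+ and 153 ± 6.79 in mutant libraries (SD, n = 3 each), and all plexins together 140 ± 10.7, 146 ± 5.19 and 138 ± 5.87. The ratio of semaphorins to plexins was 1.12 ± 0.0757, 1.12 ± 0.0474 and 1.11 ± 0.0399. Class 5, which is mostly Sema5a, was the one class whose sum separated mutant from Isl1Cre/+, with 7.29, 6.7 and 7.06 in Isl1Cre/+ against 6.44, 6.12 and 6.12 in mutant libraries, and WT at 5.64, 5.98 and 6.63. Isl1Cre/+ lay above WT without overlap for class 5, for class 4 (74.5, 73.2 and 73.5 against 69.3, 71.9 and 69.1) and for all semaphorins together (169, 160 and 162 against 157, 155 and 156). These sums are over members chosen with results known, and carry no test.

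**Figure D4:**
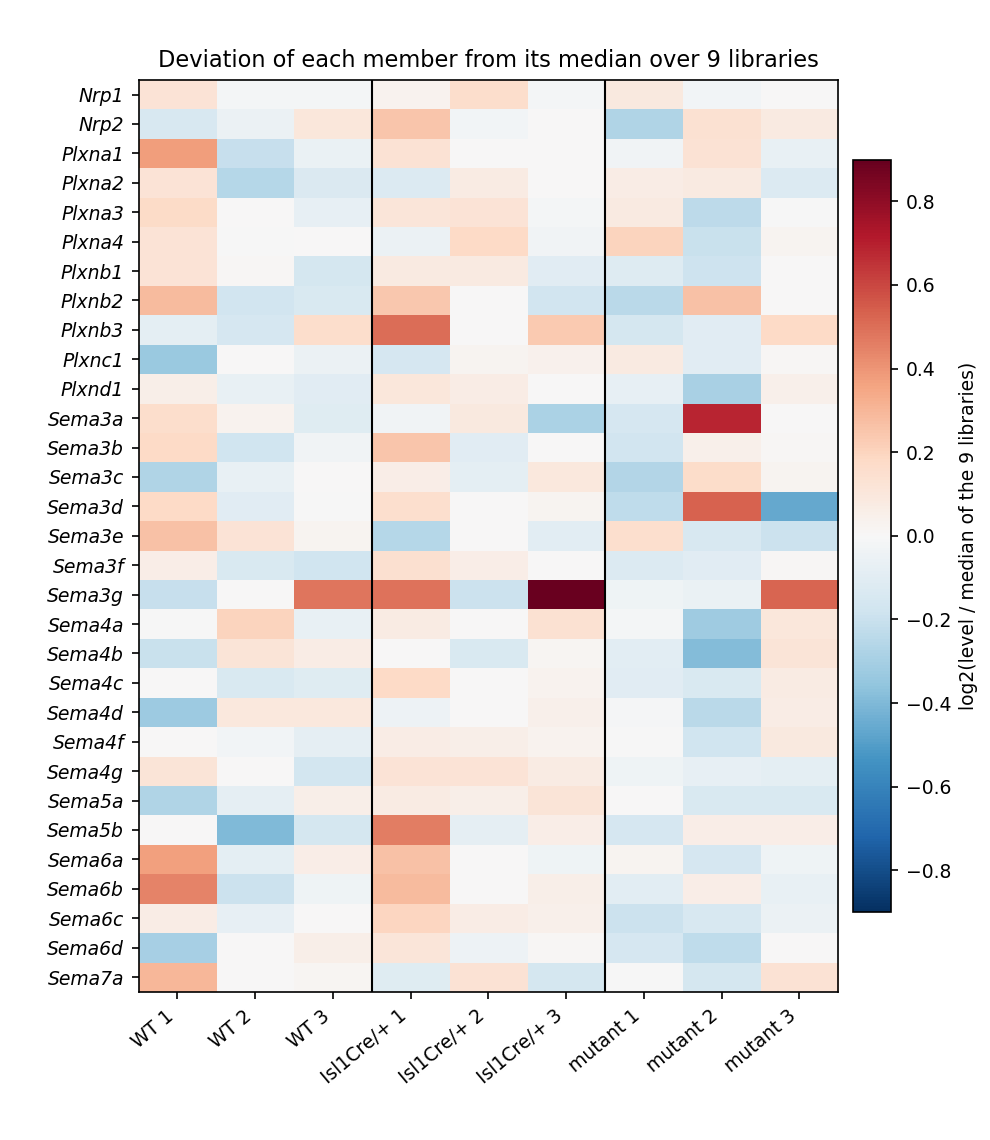
Log2 ratio of each gene's level to its own median over the 9 libraries, with 1 line per gene and 1 column per library, blue for lower and red for higher. The highest values are 0.89 for Sema3g in Isl1Cre/+ library 3, 0.68 for Sema3a in mutant library 2, and the lowest is -0.46 for Sema3d in mutant library 3.

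WT library 1 was the highest of 9 for 9 genes and the lowest for 6, while over all tested genes it was the highest for 30.4% and the lowest for 24.7%. Mutant library 2 was the highest for 3 and the lowest for 10, against 18.3% and 16.2% of all tested genes. Isl1Cre/+ library 1 was the highest for 10 of the 31 genes, against 7.98% of all tested genes. WT library 1 had the highest summed sensory neuron markers, at 26167 CPM against 15531 and 16311 in the other WT libraries, 16731 to 17769 in Isl1Cre/+ and 14907 to 19996 in mutant libraries. The filament genes Nefl and Nefm took 8108 and 8539 CPM of that sum. The other markers of this list went both ways there, with Runx3 the highest of 9 at 27.3 CPM and Runx1 the lowest at 41.3. Mutant library 2 had the highest summed markers of fibroblasts and meninges, at 7147 against 3332 and 4899 in the other mutant libraries, 3775 to 5145 in WT and 3731 to 5785 in Isl1Cre/+. All 12 fibroblast markers were detected. It also had the highest sums for skeletal muscle (2389, against 137 to 1014 in WT, 69.3 to 190 in Isl1Cre/+ and 159 and 653 in the other mutant libraries), erythroid cells (3978 against at most 2216) and macrophages (164 against at most 102). Their part in the values of the family was not tested.

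The split of the family into higher and lower against WT varied between fits. It was 9 higher and 22 lower without WT library 2 and also without mutant library 3, 16 higher and 15 lower without WT library 1, and likewise 16 and 15 with no filter on low counts. Without mutant library 2, 18 of the 31 genes were higher and 13 lower in the mutant, and without both WT library 1 and mutant library 2, 20 were higher and 11 lower. Against Isl1Cre/+, 23 to 27 of 31 genes were lower in every alternative fit. The neuropilins changed sign in some of these fits. Nrp1 was at 0.015 without Isl1Cre/+ library 2, and Nrp2 was at 0.0061 without Isl1Cre/+ library 1 and at 0.027 without mutant library 1. For Isl1Cre/+ against WT, 21 to 27 genes were higher over the alternatives, with 21 higher and 10 lower without WT library 2, without WT library 3 or without Isl1Cre/+ library 1. Without Isl1Cre/+ library 2 the estimates of Plxna4 and Nrp1 in this comparison were -0.07 and -0.014, and that of Plxna4 was also below 0 without WT library 2 or 3 and with all genotypes fitted together (-0.0036).

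Sema3d, a secreted class 3 ligand, is described because its values changed when mutant library 2 was left out, and was chosen after its values were seen. It had 1593, 1396 and 1523 counts in WT, 1731, 1481 and 1526 in the Isl1Cre/+ libraries, and 1203, 2015 and 939 in mutant libraries. Mutant libraries 1 and 3 were the lowest of the 9 and mutant library 2 was the highest. With all libraries the log2 fold change was -0.017 ± 0.243 (SE) against WT and -0.047 ± 0.233 against Isl1Cre/+. Without mutant library 2 it was -0.35 ± 0.124 (SE, edgeR unadjusted p = 0.0274, adjusted p = 1) against WT and -0.39 ± 0.0917 (edgeR unadjusted p = 0.00306, adjusted p = 1) against Isl1Cre/+, both past 1.2-fold. Mutant library 2 is the library with the highest fibroblast, muscle, erythroid and macrophage sums, whose part in the Sema3d value was not tested.

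Sema3a showed a similar excess in the same library, with 166, 293 and 169 counts in mutant libraries against 185 to 206 in WT and 161 to 206 in Isl1Cre/+. Its log2 fold change of 0.30 ± 0.23 (SE) against Isl1Cre/+ was the largest increase of the family in that comparison and had an edgeR unadjusted p = 0.238. Sema3g, a class 3 ligand known from blood vessels, had the widest spread, with 198, 243 and 346 counts in WT, 354, 210 and 452 in the Isl1Cre/+ libraries, and 223, 217 and 301 in mutant libraries. Its 95% interval in Isl1Cre/+ against WT ran from -0.35 to 1.04 on the log2 scale and was the one interval of the family in the 3 comparisons of 2 genotypes that reached beyond 2-fold. Without Isl1Cre/+ library 2, Sema3g met the criterion in mutant against Isl1Cre/+, at a log2 fold change of -0.54 ± 0.22 (SE) against -0.29 ± 0.281 with all libraries. Plxnb3, a plexin B known from oligodendrocytes, had 25.7, 18.2 and 21.4 CPM in Isl1Cre/+ against 17.1, 16.4 and 20.3 in WT and 16.2, 17 and 20.6 in mutant libraries, so that the 3 genotypes overlapped. It met the criterion in some alternative fits: against Isl1Cre/+, the mutant was lower with no filter on low counts (log2 fold change -0.30), without Isl1Cre/+ library 2 (-0.39) and without mutant library 3 (-0.39), and Isl1Cre/+ was higher than WT without WT library 3 (0.40) and without Isl1Cre/+ library 2 (0.40). Sema5b, a class 5 ligand with 8.66, 6.58 and 7.75 CPM in WT and 11.9, 8.19 and 9.03 in Isl1Cre/+, met it as higher in Isl1Cre/+ than in WT with no filter (0.37), with the replicate block (0.34), without WT library 1 (0.43) and without Isl1Cre/+ library 2 (0.46), against 0.35 ± 0.171 (SE) with all libraries. The edgeR adjusted p of these fits was 0.786 or higher.

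Partners of the family were read from a list of 67 genes, of which 59 were tested: 13 of 17 co-receptors, 3 of 4 other neuropilin ligands, 39 of 42 genes of plexin signalling and all 4 proteases of shedding and cleavage. In mutant against WT, 0 of 59 met the criterion and 0 had an edgeR unadjusted p under 0.05. In mutant against Isl1Cre/+, 1 of 59 met it, beside the 1.67% of all tested genes given above, and 3 had an unadjusted p under 0.05, as did 2.73% of tested genes. They included Kdr and Farp1, an exchange factor that binds plexin A receptors, with a log2 fold change of -0.13 ± 0.0531 (SE), and all were lower in the mutant. In Isl1Cre/+ against WT, 1 of 59 met it, beside 1.4% of tested genes, and no further partner had an unadjusted p under 0.05, which 1.79% of tested genes had. The median log2 fold change of the partners was -0.03, -0.05 and 0.05 in these comparisons.

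The partner that met the criterion was Kdr in both cases. Kdr encodes VEGFR2, an endothelial receptor that forms complexes with neuropilins. It had 36.8, 59.6 and 57.5 CPM in WT, 84.1, 65.1 and 70.1 in the Isl1Cre/+ libraries, and 45.1, 60.7 and 63.6 in mutant libraries, so that all Isl1Cre/+ libraries lay above the libraries of the other genotypes. Its log2 fold change was 0.52 ± 0.198 (SE, edgeR unadjusted p = 0.0334, adjusted p = 1) for Isl1Cre/+ against WT and -0.37 ± 0.147 (SE, edgeR unadjusted p = 0.0376, adjusted p = 1) for mutant against Isl1Cre/+. Without Isl1Cre/+ library 1 or library 3, no partner met the criterion in mutant against Isl1Cre/+ or in Isl1Cre/+ against WT. The 12 endothelial markers, of which Kdr is one and all of which were detected, summed to 373, 417 and 417 CPM in WT, 581, 436 and 451 in the Isl1Cre/+ libraries, and 338, 518 and 440 in mutant libraries, and their part in the Kdr value was not tested.

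The most abundant partners of each kind had no unadjusted p under 0.05 in these comparisons. Per length, the highest were Lgals1 among co-receptors, a galectin that binds neuropilin 1, with a level of 346 ± 49.1 (SD over 9 libraries), Vegfb among other neuropilin ligands with 37 ± 4.15, Dpysl3, a collapsin response mediator protein, among genes of plexin signalling with 385 ± 23.5, and the sheddase Adam10 with 37.2 ± 3.67.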

How the data were processed

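Gene expression was measured by RNA-seq of poly(A) RNA from E18.5 DRGs in 3 WT, 3 Isl1Cre/+ and 3 mutant libraries with unique molecular identifiers. The authors aligned single-end reads to mm10 (GRCm38) with STAR 2.7.10, removed duplicates with UMI-tools and deposited raw counts per gene from HTSeq-count 0.6, with the annotation release and strand setting not given in the sources used here. The deposited log2 fold changes and mean log2 expression, the deposited p-values and the deposited scores (moderated statistic and log odds) are the authors' own limma voom comparisons and were not used.

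Members and lists were chosen with earlier results of these data known. Genes that reached 100 counts in any library were kept (13200). After TMM normalization, edgeR 4.0.16 (R 4.3.3) was used for quasi-likelihood tests (two-sided), with a separate fit for each pair of genotypes, and p-values were adjusted by Benjamini-Hochberg across these genes. The criterion, taken from the study, combined a minimum fold change of 1.2 with an unadjusted p under 0.05. Standard errors and 95% intervals come from these fits. The script for the fits was tested on simulated data.

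Levels per length are counts per kilobase of merged exons (GENCODE M21, GRCm38) per 1000000 TMM-scaled counts. All 31 member identifiers matched this annotation with their version. Values in every library are given for members with an unadjusted p under 0.05 and separated libraries, for the 3 most abundant ligands, the 2 most abundant plexins and both neuropilins. Of the partners, those meeting the criterion are named with every library and the most abundant of each kind with a mean. Sema3a, Sema3d, Sema3g, Sema5b, Plxnb3 and Farp1 were named after their values were seen, and 1 further partner is not reported here. Alternatives were DESeq2 1.42.0, limma voom 3.58.1, other size factors and filters, all genotypes in 1 fit, replicate numbers as a block, and each library left out. Leaving out WT library 1 and mutant library 2 together was chosen after seeing the data. Libraries held 23854607 to 29103444 counts, and the lowest count of any member in a library was 134 (Sema4a). Promoter windows were taken from RefSeq (GRCm38.p6), with none for Plxna1, Plxna4, Sema3b, Sema3f and Sema6a.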

Additional observations from a re-analysis of the deposited data

How the results depend on the processing

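The count of members meeting the criterion was 0 in every comparison and stayed 0 with DESeq2 size factors, library size alone, at least 100 counts in every library, the DESeq2 Wald test, limma voom, all genotypes in 1 fit (run for the 3 comparisons of 2 genotypes) and a fold change of at least 1.5. With no filter on low counts it was 1 for mutant against Isl1Cre/+ (Plxnb3) and 1 for Isl1Cre/+ against WT (Sema5b). Without a fold requirement it was 3 for mutant against Isl1Cre/+, 1 for Isl1Cre/+ against WT and 1 for mutant against all controls. Without WT library 1 and mutant library 2 together it was 1 for mutant against WT and 1 for mutant against all controls (Sema3d in both). Leaving out 1 library gave 0 to 1 members for mutant against WT and for mutant against all controls, 0 to 2 for mutant against Isl1Cre/+ and 0 to 3 for Isl1Cre/+ against WT. For partners, these fits gave 0 to 3 in mutant against Isl1Cre/+, 0 to 3 in Isl1Cre/+ against WT and 0 in mutant against WT. The causes were not tested.

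Replicate numbers did not pair the libraries, since deviations of libraries with the same number correlated between -0.595 and 0.389, and fits with a replicate block gave 0 members for mutant against WT, 0 for mutant against Isl1Cre/+, 1 for Isl1Cre/+ against WT (Sema5b) and 0 for mutant against all controls.

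Over all genes, the criterion was met by 42 (mutant against WT), 221 (mutant against Isl1Cre/+) and 185 (Isl1Cre/+ against WT). Without the filter this was 408, 1028 and 845, with at least 100 counts in every library 36, 134 and 108, and with 1 library left out 40 to 132, 167 to 407 and 102 to 340. Without WT library 1 and mutant library 2 it was 182 for mutant against WT. An adjusted p under 0.05 was reached by 1, 1 and 0 genes with edgeR and by 1, 10 and 1 with DESeq2. Of the alternative log2 fold changes of Sema3c, Sema3e, Sema4f, Sema4g, Sema5a, Sema6c, Sema6d, Plxna4, Plxnd1, Nrp1 and Nrp2, 461 stayed within 1 SE without meeting the criterion, 7 moved further and 5 met it (Sema3e, Sema5a and Sema6c), and Sema3d, Sema3g, Plxnb3 and Sema5b are described above. With 3 libraries per genotype the spread between libraries limits what can be called, and levels per length depend on the length used.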
